A study of Homo sapiens with 30 samples.

Results

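The promoters of 10 genes that encode subunits of the SWI/SNF chromatin remodeler were examined in chromatin immunoprecipitation sequencing (ChIP-seq) of MDA-MB-231, a human cell line derived from a triple-negative breast tumour. The genes were ARID1A, ARID1B, ARID2, PBRM1, SMARCA2, SMARCA4, SMARCB1, SMARCC1, SMARCD1 and SMARCE1, out of 20090 protein-coding genes on the autosomes and chromosome X. ARID1A had drawn attention because its H3K4me3 summit lay elsewhere in the knockout, and the other 9 genes were added as members of the same remodeler family. The H3K4me3 positions are therefore given as a description, without a test. In parental cells the antibodies recognised SIN3B, SIN3A and SAP30. Histone marks H3K9Ac and H3K4me3 and RNA polymerase II (Pol II) were profiled in the parental line and also in SAP30-KO1 cells, which makes 9 groups of 2 libraries. SAP30-KO1 is a CRISPR/Cas9 knockout of SAP30 in the same line, and per the study's methods it was made by mixing knockout cells that had been picked one by one. Nothing in the labels says whether replicates came from separate cultures, so the spread between them may be technical. The lists analysed here held no SAP30 ChIP in the knockout, and the loss of SAP30 from the genes could not be checked in them.

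The data were lists of peak summits, each with the −log10 of its q-value. Between 10861 and 54622 summits were listed per library, and the sequencing depth is unknown. A summit was ranked within its own list, from 0% for the highest score to 100% for the lowest, and this list rank is used throughout. A promoter summit lay within 1500 bp of any annotated transcription start site of the gene, while positions were measured from the start of the canonical transcript in the direction of transcription. Of the 10 genes, 6 had 1 promoter window and 4 had more. In the parental cells H3K4me3 summits of both libraries marked the promoters of VIM, CD44, CAV1 and AXL, 4 genes expected in this mesenchymal-like line, but also those of all 6 markers of other breast cell types. Pol II summits were in both parental libraries at the first 4 genes and at 3 of the other 6, and in neither library at ESR1, PGR and CDH1.

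SWI/SNF complexes use the energy of ATP to slide or evict nucleosomes and so open promoters and enhancers. SMARCA4 and SMARCA2 are the alternative ATPases, and SMARCB1, SMARCC1, SMARCD1 and SMARCE1 belong to the shared core. ARID1A or ARID1B defines the canonical BAF complex, whereas ARID2 and PBRM1 belong to PBAF, and many of these genes are mutated in human cancer. SIN3A and SIN3B are the scaffolds of the SIN3 histone deacetylase complex, of which SAP30 is a subunit. H3K4me3 marks active promoters, and H3K9Ac marks active promoters and enhancers.

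The sequences under the sites on which the results turn were read from GRCh37, in the direction of transcription of the gene. Capitals mark matches on either strand to GGGCGG (the SP/KLF box), CCAAT (the NF-Y box) or CACGTG (the E-box). The 150 bases before the canonical ARID1A start site (chr1:27022356-27022505, plus strand) are shown because Pol II and SIN3B summits lay around them and SAP30 summits did not. The 151 bases around the ARID1A H3K4me3 summits of the knockout (chr1:27023818-27023968, plus strand) lie in the coding part of exon 1. The 151 bases around the ARID1A SAP30 summits nearest to that start (chr1:27024564-27024714, plus strand) lie in intron 1. For contrast, the SAP30 site of SMARCC1, among the best-ranked of its lists, is shown from intron 1 (chr3:47822895-47823045, minus strand), and so are 120 bases of the internal SAP30 site of SMARCA2 (chr9:2157882-2158001, plus strand), which overlap a coding exon of a shorter transcript.
ARID1A before the start: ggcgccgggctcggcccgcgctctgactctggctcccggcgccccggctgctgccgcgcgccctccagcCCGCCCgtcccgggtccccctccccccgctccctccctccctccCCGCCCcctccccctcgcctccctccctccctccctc
ARID1A knockout H3K4me3 site: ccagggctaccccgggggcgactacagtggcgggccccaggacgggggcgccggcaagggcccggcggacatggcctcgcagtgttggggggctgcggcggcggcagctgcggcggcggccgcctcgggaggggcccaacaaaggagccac
ARID1A intron 1 SAP30 site: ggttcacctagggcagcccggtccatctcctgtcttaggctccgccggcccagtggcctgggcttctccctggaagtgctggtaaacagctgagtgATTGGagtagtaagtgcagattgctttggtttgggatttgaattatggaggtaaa
SMARCC1 intron 1 SAP30 site: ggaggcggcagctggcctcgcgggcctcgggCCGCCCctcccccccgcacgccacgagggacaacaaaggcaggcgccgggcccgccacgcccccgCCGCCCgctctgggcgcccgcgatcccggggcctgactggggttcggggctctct
SMARCA2 internal SAP30 site: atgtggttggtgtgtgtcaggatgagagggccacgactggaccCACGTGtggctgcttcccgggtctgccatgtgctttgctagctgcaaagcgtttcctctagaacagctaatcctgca

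The 5 stretches differed in base composition. The ARID1A sites before the start and under the knockout H3K4me3 summits each held 17 CG pairs, at 83.3% and 78.8% G or C, and the SMARCC1 site held 20. The ARID1A intron 1 site held 3 CG pairs at 53.6% G or C, and the SMARCA2 internal site held 4. The best SAP30 summits of both replicates lay within 200 bp of each other at 7 of the 10 genes, the exceptions being ARID1A, ARID1B and SMARCA2. Over all genes this held at 10180 of the 12556 with a SAP30 promoter summit in both libraries. At these genes 151 bp around the midpoint were searched on both strands. GGGCGG was in 4 of the 7 windows (SMARCE1, SMARCB1, SMARCC1 and ARID2) and in 46.8% of all windows. CACGTG was in the window of PBRM1 and in 8.93% of all, and ATGGCG (the core of the YY1 motif) was in that of SMARCE1 and in 12.8% of all. CCGGAA (ETS) was in none of the 7 and in 15.0% of all, and CCAAT was in none and in 7.91% of all. No match was found in the 7 windows to CGCATGCG (NRF1, 0.432% of all), TGACTCA (AP-1, 1.74%) or TGACGTCA (CRE, 0.806%), none of which overlaps another motif searched. The windows of the 7 genes held a median of 18 CG pairs, from 15 at SMARCD1 to 25 at SMARCB1, and those of all genes a median of 16.

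SAP30 summits were present in both parental libraries at all 10 SWI/SNF promoters, against 62.5% of all protein-coding genes. SIN3B summits were in both libraries at 9 (52.4% of all genes), and SMARCB1, a core subunit, had SIN3B in 1 of the 2. SIN3A was in both libraries at 6 (32.1% of all genes), in 1 library at SMARCD1 and ARID2, and in neither at SMARCE1 and SMARCB1. The SIN3A lists were the shortest, and keeping the better-ranked 50% of each list left 3 of the 10 promoters with SIN3A in both libraries. These counts describe chosen genes and were not tested against the background. The list ranks of SAP30 at these promoters were in the middle of those of other bound genes, with a median of 21.1% and 20.6% in the replicates, against 17.1% and 17.5% over all genes with a promoter summit.

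Among the core subunits, SMARCC1, which scaffolds the complex, had one of the best-ranked SAP30 sites. Its summit lay 436 and 390 bp downstream of the start, in intron 1, at a list rank of 0.580% and 0.583%. SIN3A lay at 439 and 432 bp with list ranks of 3.32% and 1.48%, so that SAP30 and SIN3A shared the site in all 4 libraries. SIN3B was at 16 bp (12.9%) in replicate 1 and at 460 bp (19.4%) in replicate 2. SMARCB1, by contrast, had SAP30 481 and 395 bp downstream of its start with list ranks of 39.3% and 42.2%, the lowest standing of SAP30 among the 10 genes in either library. Its SIN3B summit in replicate 1 ranked at 74.9%. SMARCE1, an HMG-box subunit, had SAP30 335 and 312 bp upstream at 20.8% and 15.5% and SIN3B 89 and 74 bp downstream at 12.4% and 12.6%. SMARCD1, a subunit that contacts transcription factors, had SAP30 146 and 186 bp upstream at 27.7% and 19.8% and SIN3B 96 and 121 bp downstream at 24.7% and 31.3%.

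The PBAF genes differed from each other. PBRM1, which encodes a protein with several bromodomains, shares its promoter with the divergent gene GNL3, whose start is 103 bp away. SAP30 lay between the starts or just beside them, 89 and 114 bp upstream of PBRM1, at list ranks of 1.37% and 0.428%. SIN3A was found 123 and 132 bp upstream at 1.48% and 1.43%, and SIN3B 142 and 132 bp upstream at 4.50% and 10.1%. The summits of the 3 proteins thus lay between 89 and 142 bp upstream in all 6 libraries, and they cannot be assigned to PBRM1 or to GNL3. ARID2, the DNA-binding subunit of PBAF, had SAP30 674 and 759 bp upstream at 21.4% and 21.3%. Its SIN3A summit was in replicate 1 at 86.8%, near the bottom of the list.

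The ATPase genes were bound near the canonical start. SMARCA4 had SAP30 281 and 326 bp downstream at 14.0% and 30.1%. It also had SAP30 summits in the gene body, the best of which ranked at 4.75% and 6.58%, above those of its promoter. Whether these lay at the same place in both replicates was not examined. SMARCA2 had SAP30 366 and 375 bp upstream of the canonical start at 5.59% and 13.1%. A further SAP30 site stood at an internal promoter of SMARCA2, 142589 and 142569 bp downstream, at list ranks of 8.41% and 4.09%. The replicates thus disagreed on which of the sites ranked higher.

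The ARID genes of BAF had SAP30 away from the canonical start. At ARID1B, the best SAP30 promoter summits lay 244025 and 244289 bp downstream of the canonical start, at an internal promoter, at 21.9% and 32.1%. Better-ranked SAP30 summits of the gene lay 3066 and 3101 bp downstream in an intron, at 14.7% and 14.9%, outside the promoter windows. Within 1500 bp of the canonical start ARID1B had a SAP30 summit in replicate 2 alone, at 217 bp (38.2%). ARID1A showed no SAP30 summit within 1500 bp of its canonical start in either library. SIN3B had summits there in both libraries, 159 and 151 bp upstream at 17.1% and 17.5%, and SIN3A had them at 698 bp downstream (55.5%) and 267 bp upstream (34.9%). SAP30 flanked this interval instead. Its promoter summits lay 2773 and 3437 bp upstream, at 29.2% and 26.7%. They were 6 and 658 bp from the most upstream start site of the gene, so the replicates did not mark the same place. Its better-ranked summits lay 2104 and 2162 bp downstream in intron 1, at 6.13% and 10.2%, outside the promoter window and on the CG-poor sequence shown above. SIN3B had summits beside this intron 1 site at 2086 and 2107 bp (14.5% and 34.8%), and so did SIN3A at 2134 and 2204 bp (31.4% and 88.2%). Of 10224 genes with SIN3B within 1500 bp of the canonical start in both libraries, 45 (0.440%) had no SAP30 summit there in either library. ARID1A was the member among them, and this feature was looked at after its values were seen. In the plot of all summits at ARID1A the shaded window is empty in the SAP30 lists and filled in those of SIN3A and SIN3B.

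**Figure D1:**
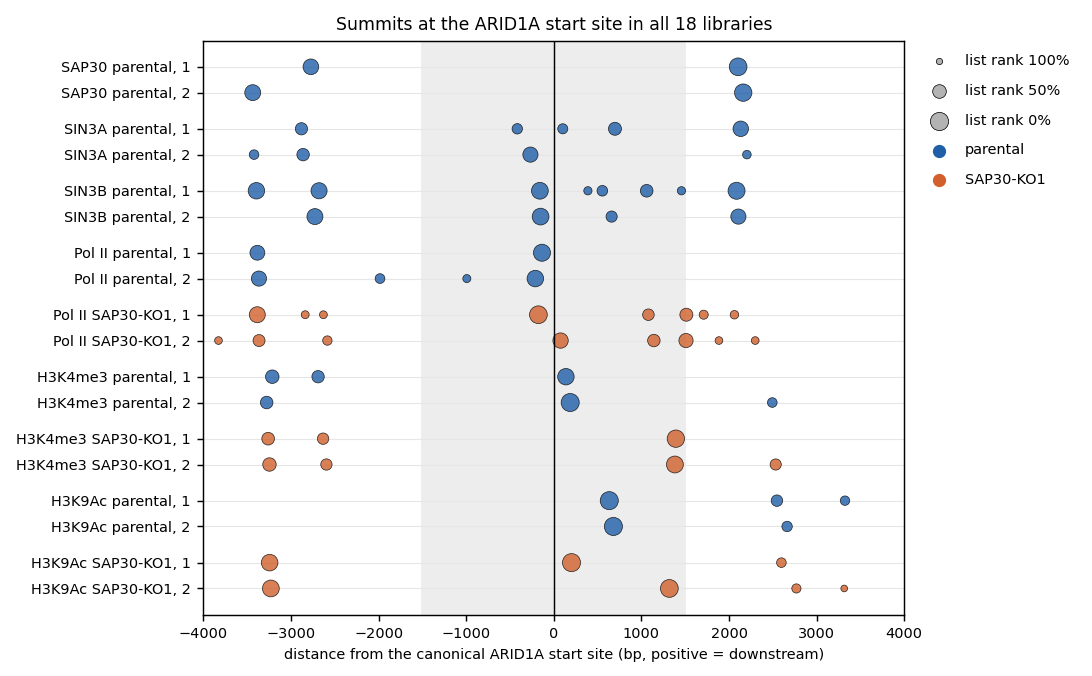
Summits from 4000 bp upstream to 4000 bp downstream of the canonical ARID1A start site (x axis, bp) in the 18 libraries (rows, antibody, cell line and replicate). Each point is a summit, larger points rank better in their own list, blue is parental and orange is SAP30-KO1, and the shaded band is the window of 1500 bp at each side; the H3K4me3 summits near the start lie at 138 and 187 bp in parental cells and at 1393 and 1382 bp in the knockout.

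Beyond the promoters, the gene bodies of ARID1A and ARID1B held most of the other SAP30 summits. Outside the promoter windows, ARID1A had 6 and 6 SAP30 summits in the replicates and ARID1B had 9 and 11, while SIN3A had 1 and 1 in ARID1A and 2 and 1 in ARID1B. ARID1B is also the longest of the 10 genes, at 434760 bp. SMARCE1, SMARCA2 and SMARCB1 had no summit of any of the 18 lists in the gene body outside the promoter windows. The count of summits in a gene body depends on its length and was not compared between genes by a test.

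**Figure D2:**
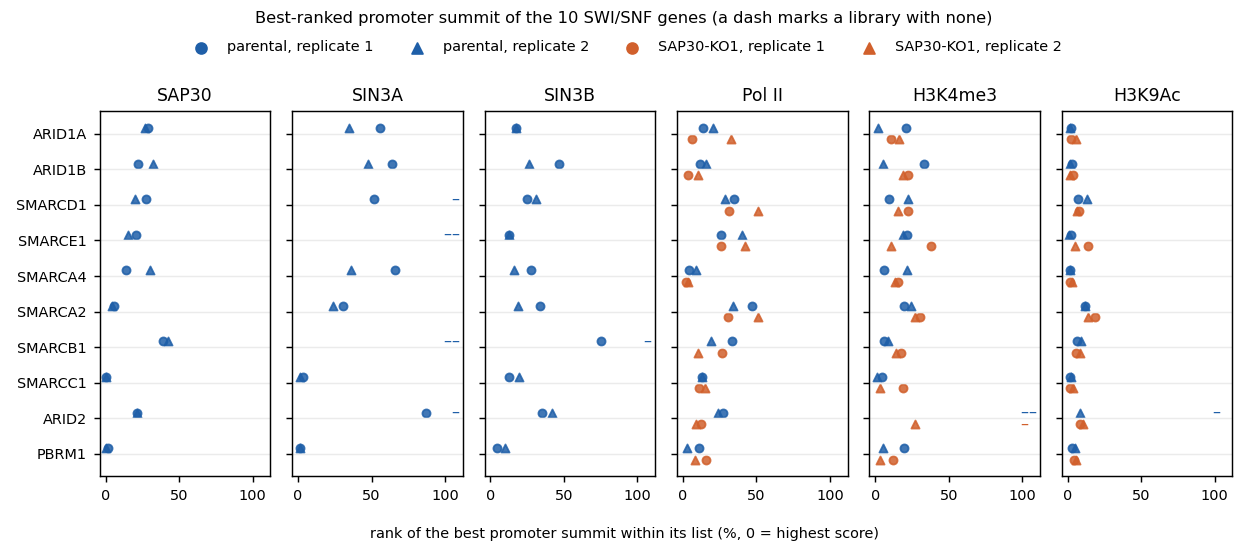
List rank (x axis, %, 0 for the highest score in the list) of the best promoter summit of each gene (y axis) for the 6 antibodies, with circles for replicate 1, triangles for replicate 2, blue for parental and orange for SAP30-KO1, and a dash for a library without a promoter summit. SMARCC1 and PBRM1 are at the left edge for SAP30 and SIN3A, and SIN3A has the dashes of SMARCE1 and SMARCB1 in both libraries.

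Pol II was present at the promoters of all 10 genes in both parental libraries (58.3% of all genes) and in both SAP30-KO1 libraries (54.3% of all genes). The rank of its best promoter summit was compared between the lines with limma on normal scores, in which each library's genes are ranked among those with a summit in all 4 libraries and a positive difference means a better rank in the knockout. No gene of the 10817 tested passed an adjusted p of 0.05 with limma, and 947 (8.75%) had an unadjusted p under 0.05, among them 1 of the 10 members. At 3 of the 10 genes both knockout libraries ranked better than both parental ones (15.5% of all genes), and at 0 both ranked worse (24.2% of all genes).

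The member with the low unadjusted p was ARID2. Its Pol II summit ranked at 27.2% and 23.9% in parental cells and at 12.6% and 8.72% in SAP30-KO1 cells. Both knockout values were better than both parental values, with a difference of 0.84 (SE 0.378, limma, adjusted p = 0.555). With limma no member had an unadjusted p under 0.05 when parental replicate 1, parental replicate 2 or knockout replicate 2 was left out. SMARCA4, the ATPase also known as BRG1, had among the best Pol II ranks of the family, at 3.87% and 9.11% in parental and 2.38% and 3.44% in knockout cells. ARID1B ranked at 11.8% and 16.0% against 3.67% and 10.1%, and its summits lay at the internal promoter in all 4 libraries. For SMARCA4 and ARID1B, too, the knockout libraries did not overlap the parental ones, but the differences of 0.44 (SE 0.394, limma, adjusted p = 0.776) and 0.58 (SE 0.399, limma, adjusted p = 0.703) did not pass the test. At ARID1A the replicates disagreed, with 13.9% and 20.1% in parental and 6.05% and 32.9% in knockout cells.

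The other members gave no call either. PBRM1 ranked at 11.1% and 2.63% in parental and 15.8% and 8.29% in knockout cells, a difference of −0.49 (SE 0.427, limma, adjusted p = 0.770). SMARCC1 stood at 13.0% and 12.8% against 11.3% and 15.1%. SMARCB1 was at 33.7% and 19.4% against 26.5% and 10.4%, SMARCD1 at 34.4% and 28.9% against 31.5% and 51.0%, SMARCE1 at 25.6% and 40.3% against 26.2% and 42.1%, and SMARCA2 at 47.0% and 33.8% against 30.7% and 51.0%. In each of these 4 genes the ranges of the lines overlapped. The difference was positive at 7 of the 10 genes, with a median of 0.15 over them, against a median of 0.0002 over all genes tested. This sign rested on single libraries, since the median over the members was −0.11 with 4 positive without knockout replicate 1, 0.43 with 8 positive without knockout replicate 2, and 0.046 with 5 positive without parental replicate 2. With ranks over the whole list it was 0.014 with 5 positive.

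The position of the Pol II summit was compared between the lines. The median size of the shift between the mean positions was 108.5 bp over 9 members and 35.5 bp over all genes, which was not tested. Of the 10 genes, 9 had a Pol II summit within 1500 bp of the canonical start in all 4 libraries, and in 0 of the 9 were the lines at least 500 bp apart (0.808% of 10525 genes). SMARCA4 lay between 373 and 402 bp upstream and ARID2 between 585 and 648 bp upstream in all 4 libraries. The widest separation of the lines was at SMARCA2, where the parental summits lay 13 bp downstream and 297 bp upstream and the knockout summits 1250 and 146 bp downstream, a gap of 133 bp. The replicates of the knockout differed by far more than that gap.

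More Pol II summits were listed in the knockout at some promoters. At 3 of the 10 genes, ARID1A, ARID1B and SMARCE1, both knockout libraries had more promoter summits than either parental library, which held for 13.1% of 12295 genes, and at 0 of the 10 they had fewer (4.88% of all). ARID1A had 2 and 4 Pol II promoter summits in parental cells and 7 and 7 in knockout cells. ARID1B had 3 and 3 against 5 and 5, and SMARCE1 had 2 and 1 against 3 and 3. The lowest-ranked SMARCE1 summit of the knockout lay 501 bp downstream (93.5%) in replicate 1 and 694 bp upstream (96.0%) in replicate 2. It was thus near the bottom of each list and not at the same place. The count depended on the window, since with 1000 bp SMARCE1 alone was left. The share of genes with more summits in the knockout also exceeded the share with fewer over all genes, so the direction was not particular to these promoters.

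The extra Pol II summits at ARID1A lay on both sides of the start. Upstream, knockout replicate 1 had summits at 2838 and 2630 bp and knockout replicate 2 at 3828 and 2585 bp. These were low in their lists, and the parental libraries listed no Pol II summit at these positions. Parental replicate 2 in turn had summits 1984 and 993 bp upstream that neither knockout library had. Between 1000 and 2000 bp downstream of the canonical start, the parental libraries had 0 and 0 Pol II summits and the knockout libraries 3 and 3. In replicate 1 they lay at 1080, 1513 and 1711 bp with list ranks of 67.8%, 55.8% and 85.2%, and in replicate 2 at 1142, 1509 and 1885 bp with 60.3%, 44.5% and 93.2%. All 6 were thus in the lower part of their lists or near the middle, across exon 1 and the start of intron 1. The best-ranked Pol II summits stayed near the start, 135 and 211 bp upstream in parental cells, and 176 bp upstream and 77 bp downstream in knockout cells. A Pol II summit in this interval in both knockout libraries and in neither parental one was found at 74 of 10525 genes (0.703%), and the reverse at 85 (0.808%). The interval was chosen after the ARID1A values were seen. Of the other 9 genes, ARID1B and SMARCA2 had Pol II summits there in all 4 libraries and the remaining 7 in none.

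H3K4me3 was present in both libraries of each line at 9 of the 10 promoters (64.8% of all genes in parental and 63.7% in SAP30-KO1 cells). The exception was ARID2, which had a promoter summit in 1 knockout library, 326 bp upstream at 27.0%. Its H3K4me3 summits lay farther upstream in all 4 libraries, 2635 and 2629 bp upstream in parental (14.4% and 30.7%) and 2654 and 2531 bp upstream in knockout cells (22.2% and 27.6%). They lie within LINC00938, a noncoding gene transcribed in the opposite direction, so this mark cannot be assigned to ARID2.

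ARID1A had its H3K4me3 summit 138 and 187 bp downstream of the canonical start in the parental libraries, in the 5′ untranslated region. In the SAP30-KO1 libraries the summit lay 1393 and 1382 bp downstream, in the coding part of exon 1 and on the CG-rich sequence shown above. The summits ranked at 21.0% and 1.79% in parental and at 10.8% and 16.1% in knockout cells, so the ranks overlapped while the positions did not. The nearest positions of the lines were 1195 bp apart, the tenth widest such gap among the 12372 genes with a summit in all 4 libraries, a place that the choice of ARID1A used. Each library listed 1 H3K4me3 summit within 1500 bp of the start, and widths of the peaks are not in the lists, so a moved summit and a changed shape of a broad peak cannot be told apart. A window of 1000 bp does not reach the knockout summits.

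No such gap was seen at the other members. Of the 8 genes with an H3K4me3 summit near the canonical start in all 4 libraries, ARID1A was the 1 displaced by at least 500 bp, against 0.703% of all genes. ARID1A was chosen for this displacement, so the count cannot be read against that share. At PBRM1 the summits lay at 110 and 108 bp in parental and at 108 and 102 bp in knockout cells. SMARCB1 had them at 180 and 182 bp against 193 and 163 bp, and SMARCA2 at 918 and 901 bp against 863 and 908 bp. The remaining 4 of these genes, SMARCC1, SMARCD1, SMARCE1 and SMARCA4, had overlapping positions or gaps of at most 28 bp. ARID1B had its best H3K4me3 summits between 1678 and 1748 bp downstream in all 4 libraries, beyond the window of the canonical start but inside that of another start site. The plot of summit positions shows the H3K4me3 points of the other genes in tight clusters.

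**Figure D3:**
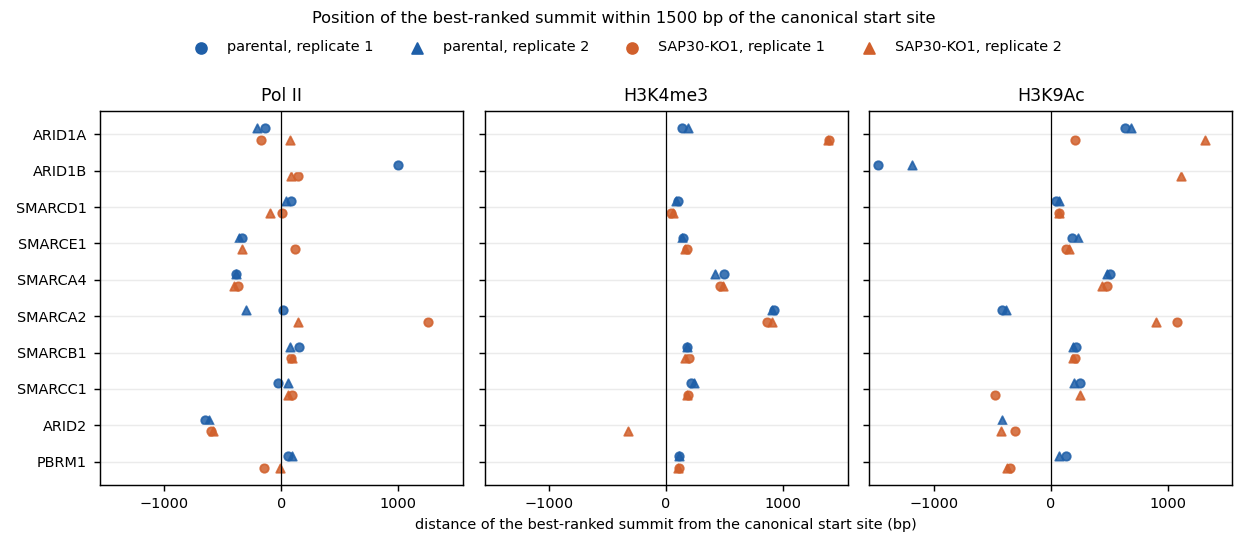
Distance of the best-ranked summit from the canonical start site (x axis, bp, positive downstream, limited to 1500 bp at each side) for each gene (y axis), with Pol II, H3K4me3 and H3K9Ac in separate panels, circles for replicate 1 and triangles for replicate 2, blue for parental and orange for SAP30-KO1. At ARID1A the H3K4me3 points of the lines are 1195 bp apart, and at SMARCA2 the H3K9Ac points are 1284 bp apart.

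The genes whose H3K4me3 positions were most like those of ARID1A were DCUN1D4, FSTL4 and HCFC1. Likeness was the sum over the 4 libraries of the absolute differences in position, which came to 212, 576 and 1000 bp. DCUN1D4 had summits at 136 and 155 bp in parental and 1310 and 1287 bp in knockout cells. FSTL4 had them at 297 and 173 against 1184 and 1188 bp, and HCFC1 at 345 and 358 against 1083 and 1070 bp. Their resemblance to ARID1A is what selected them. None of these genes encodes a SWI/SNF subunit.

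**Figure D4:**
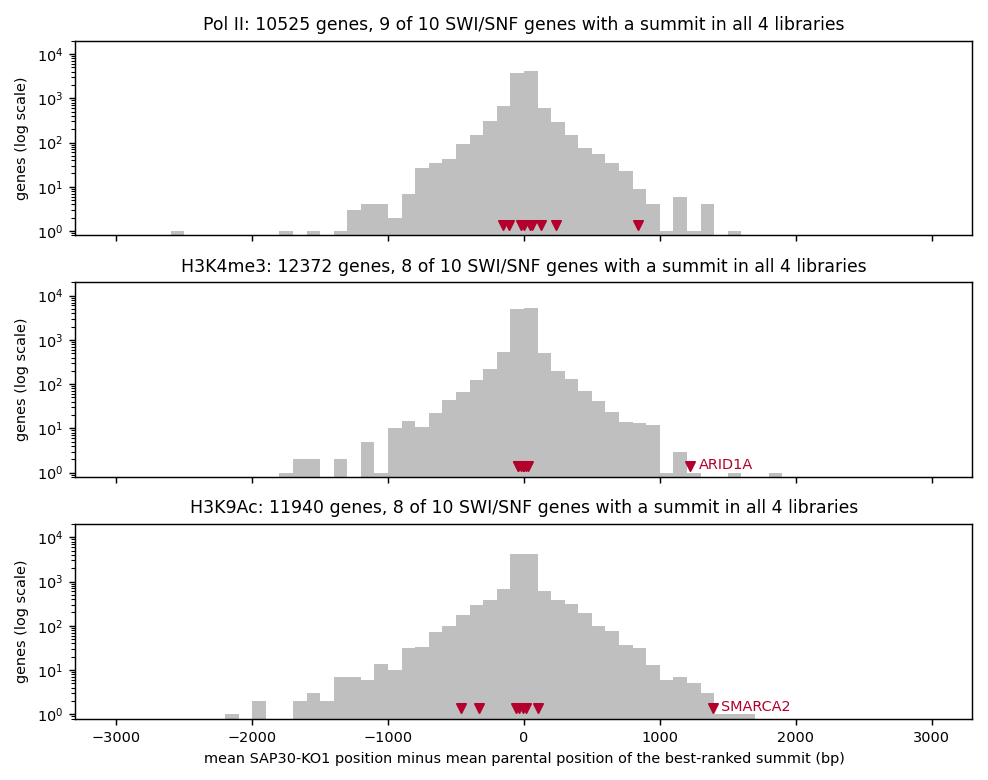
Number of genes (y axis, log scale) by the mean SAP30-KO1 position minus the mean parental position of the best-ranked summit (x axis, bp, bins of 100 bp) for Pol II, H3K4me3 and H3K9Ac, over genes with a summit within 1500 bp of the canonical start in all 4 libraries. Red triangles are the SWI/SNF genes, with ARID1A at 1225 bp for H3K4me3 and SMARCA2 at 1390 bp for H3K9Ac named.

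H3K9Ac was present in both parental libraries at 9 of the 10 promoters (62.5% of all genes) and in both knockout libraries at all 10 (62.2% of all genes). ARID2 lacked it in parental replicate 1. These promoters ranked high in the H3K9Ac lists, with a median rank over the members of 2.72% and 3.52% in parental and 5.04% and 5.39% in knockout cells, against medians between 12.1% and 12.9% over all genes with a promoter summit. SMARCA2 had 11.6% and 11.9% in parental and 18.5% and 13.5% in knockout cells. It stood lowest of the 10 genes in knockout replicates 1 and 2, and lowest of the 9 with a summit in parental replicate 1.

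The rank of H3K9Ac was compared between the lines in the same way for the 9 members with a promoter summit in all 4 libraries. No gene of the 12320 tested passed an adjusted p of 0.05 with limma, and 1058 (8.59%) had an unadjusted p under 0.05, among them 1 of the 9 members. At 4 of the 9 genes, ARID1A, SMARCE1, SMARCA4 and SMARCA2, both knockout libraries ranked worse than both parental ones (22.3% of all genes), and at 0 both ranked better (16.5% of all genes). The member with the low unadjusted p was SMARCE1, which ranked at 2.23% and 1.17% in parental and at 13.7% and 5.05% in knockout cells. Both knockout values stood below both parental values, with a difference of −1.10 (SE 0.340, limma, adjusted p = 0.422). The difference was −0.66 without knockout replicate 1, where no member had an unadjusted p under 0.05 with limma, and −1.54 without knockout replicate 2. SMARCA4 ranked at 1.31% and 1.31% against 1.75% and 2.76%, also without overlap, with a difference of −0.24 (SE 0.303, limma, adjusted p = 0.874). The difference was positive at 2 of the 9 genes, SMARCD1 and SMARCB1, and the median over the 9 was −0.14, against 0.0067 over all genes tested. With a library left out this median stayed negative, at −0.25 without parental replicate 1, −0.23 without parental replicate 2, −0.21 without knockout replicate 1 and −0.079 without knockout replicate 2. These settings share libraries, and the 9 are chosen genes whose median rank was better than that of all genes. The median difference was not tested.

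The positions of the H3K9Ac summits differed between the lines or between replicates at several members. At PBRM1 they lay 127 and 72 bp downstream of the start in parental cells and 350 and 374 bp upstream, on the GNL3 side, in knockout cells. The lines were 422 bp apart, below the 500 bp used for a displacement, and the ranks were 2.72% and 5.09% against 4.41% and 5.30%. The H3K4me3 summits of the same promoter stayed between 102 and 110 bp downstream.

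At SMARCA2 the best-ranked H3K9Ac summit near the canonical start lay 415 and 383 bp upstream in parental cells and 1081 and 901 bp downstream in knockout cells. It was the 1 of 8 members displaced by at least 500 bp, against 1.77% of 11940 genes, and its direction depended on the window. The parental libraries also had better-ranked summits just beyond it, 2051 and 2464 bp downstream at 11.6% and 11.9%, so that with a window of 3000 bp the shift changed from 1390 bp downstream to −1266.5 bp, that is, upstream. A summit close to 400 bp upstream was in fact listed in all 4 libraries, at 31.8% and 26.7% in parental and at 453 and 391 bp upstream with 28.1% and 33.4% in knockout cells. The lines thus differed in the downstream summit, which was nearer to the start in both knockout libraries than in either parental one.

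At ARID1A the H3K9Ac summit lay 633 and 680 bp downstream of the start in parental cells and at 202 and 1319 bp in knockout cells, on either side of the parental positions. The knockout replicates thus differed from each other by more than the lines did, in contrast to H3K4me3 at the same start. The ranks were 1.96% and 1.52% in parental and 2.11% and 5.48% in knockout cells. Both knockout libraries also had an H3K9Ac summit at the upstream start of ARID1A, 3244 and 3230 bp upstream at 19.0% and 17.0%, where the parental libraries had a summit at 4140 bp upstream (74.1%) in replicate 2 and at 4768 bp (98.1%) in replicate 1. SMARCC1 had its summit 476 bp upstream in knockout replicate 1 and between 193 and 251 bp downstream in the other 3 libraries. ARID1B, whose best H3K9Ac summit lies beyond 1500 bp of the canonical start in 3 libraries, had it at 1798 and 1725 bp downstream in parental cells and at 1777 and 1114 bp in knockout cells, so that here too the knockout replicates were farther apart than the parental ones.

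The number of H3K9Ac and H3K4me3 promoter summits rarely separated the lines. Both knockout libraries had fewer H3K9Ac promoter summits than either parental library at 1 of the 10 genes, ARID1B, with 5 and 6 in parental and 2 and 3 in knockout cells (3.96% of all genes), and more at 0 (2.53% of all). With a window of 1000 bp ARID1B no longer met this. For H3K4me3 the counts were 0 more (2.58% of all) and 0 fewer (2.90% of all), and leaving out parental replicate 1 gave 2 and knockout replicate 1 gave 3 members with more.

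Other subunit genes of the complex were set beside the 10. Of 19 further SWI/SNF genes, 17 had SAP30 in both libraries, 18 had SIN3B and 8 had SIN3A. Those without a SAP30 promoter summit in either library were ACTL6B, a neuron-specific actin-related subunit, and BCL7A, an accessory subunit. ACTL6B also lacked Pol II, H3K4me3 and H3K9Ac summits in all the libraries, whereas BCL7A had Pol II in both parental libraries and in 1 of 2 knockout libraries. Pol II was in both libraries at 17 of the 19 in parental and 16 in knockout cells, and H3K4me3 and H3K9Ac at 18 in each line. Of 25 genes of other remodelers, 25 had SAP30, 22 had SIN3B and 13 had SIN3A in both libraries, so that SAP30 at all 10 of the SWI/SNF genes was matched in another group of chromatin genes.

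Displacement was counted in these genes as well. For H3K4me3, 0 of 18 further SWI/SNF genes and 0 of 25 genes of other remodelers with summits in all 4 libraries were displaced by at least 500 bp. For H3K9Ac it was 1 of 18, SMARCC2, the paralog of SMARCC1, with summits at −650 and −631 bp in parental and at 169 and 177 bp in knockout cells, negative values being upstream. For Pol II it was 1 of 16, DPF3, a PHD-finger subunit, with summits at −970 and −753 bp against −194 and −214 bp. Among the genes of other remodelers it was 1 of 24 for H3K9Ac and 0 of 22 for Pol II. No gene of these lists passed the limma test of rank, with 16 and 24 genes tested for Pol II and 18 and 25 for H3K9Ac.

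The summits nearest to the edge of the promoter window show what the limit of 1500 bp decides. Just inside were a Pol II summit of ARID1A in knockout replicate 2 at 1496 bp from the nearest start site, an H3K9Ac summit of ARID1B in parental replicate 1 at 1495 bp and a SIN3B summit of SMARCC1 in replicate 2 at 1484 bp. Just outside were a Pol II summit of PBRM1 in knockout replicate 2 at 1549 bp, an H3K9Ac summit of SMARCC1 in parental replicate 2 at 1553 bp and an H3K9Ac summit of PBRM1 in knockout replicate 2 at 1622 bp. Of these 6, the ARID1B summit, at a list rank of 2.85%, was also the best of its promoter.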

How the data were processed

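ChIP-seq peak summits of 18 libraries, 2 in each of 9 groups given by antibody and cell line in the labels, were used as deposited. The authors called peaks in each library and deposited summits with their −log10 q-values. Whether a peak could hold more than 1 summit is not given. No deposited score was under 1.30. Per the labels the processing notes name FastQC 0.11.2, Bowtie2 2.3.3.1, Picard and MACS2 2.1.0 and the build hg19, whose coordinates are those of GRCh37. The options, the control of each list, the peak widths and the depth are not given in the sources used here. A further 12 input and H3 samples were not analysed here. The score depends on depth and on enrichment, so it was ranked within its own list.

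The 10 genes, the other lists of genes and the tests were chosen with earlier results of these data known. Genes, start sites of basic transcripts and canonical starts were taken from GENCODE 44 lifted to GRCh37. All 10 members are named, other SWI/SNF genes where they lacked SAP30, were displaced or passed the test, and genes of other remodelers are given as counts. A gene was called displaced where the best summits of the lines lay at least 500 bp apart. Ranks of the best promoter summit were turned into normal scores and compared with limma 3.58.1 in R 4.3.3. Benjamini-Hochberg adjustment was over all genes tested. A trial on simulated libraries recovered 0% of genes shifted by 1.5 in normal score, for Pol II and for H3K9Ac. With a shift of 3 it recovered 45.5% and 74%. Every member difference was smaller than 1.5 in the main setting, so the test could hardly have called a member. The remaining steps used Python 3.11.15. Same-numbered libraries of the 2 lines did not deviate together (correlations of 0.016 for Pol II and 0.0078 for H3K9Ac), so the number was not used as a pairing in the main setting. The labels do not say whether same-numbered libraries were processed together. Sequences were read from GRCh37 by coordinates. Replicate lists were compared and were not copies of each other. Alternatives changed the window, the displacement limit, the choice of start site, the score, the part of the list and the libraries used.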

Additional observations from a re-analysis of the deposited data

How the results depend on the processing

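Presence of a promoter summit in both libraries kept its count within 1.5 times in 62 of 63 planned settings, the exception being SIN3A with 3 genes in the better-ranked 50% of each list. Within that limit the SAP30 count of 10 fell to 7 with a window of 500 bp. It fell to 8 with the canonical start alone and to 8 with lists cut to the length of the shortest. The counts of displaced members were less stable. For Pol II the count was 1 with the mean position of all summits (ARID1A), and 0 to 1 with a library left out, where ARID1B entered without parental replicate 2 and SMARCA2 without knockout replicate 2. The H3K4me3 count was 0 with a window of 1000 bp, which does not reach the ARID1A summits of the knockout, and the ARID1A shift kept its direction in the other 7 settings. The H3K9Ac count was 0 with a window of 1000 bp, 2 with a gap of 250 bp (SMARCA2 and PBRM1), 0 with any basic start site, and 1 to 3 with a library left out, the highest without knockout replicate 1. The SMARCA2 shift of 1390 bp kept its size in none of the 4 planned settings. It was 623 bp with a window of 1000 bp, 888 bp with the mean position of all summits, 69985 bp with any basic start site, where another promoter enters, and −1266.5 bp with a window of 3000 bp, where the parental summits beyond 1500 bp enter. With a library left out it stayed between 1300 and 1480 bp.

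The counts of summit number under other windows were added after the data were seen. With 1000 bp, more Pol II summits were found at 1 gene (SMARCE1), more H3K9Ac summits at 1 (ARID1A) and fewer at 0. With a library left out, members with fewer Pol II summits numbered 0 to 1, with more H3K4me3 summits 0 to 3, with more H3K9Ac summits 0 to 2 and with fewer 1 to 2.

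For the H3K9Ac ranks, limma called 6 genes with the replicate number as a block, 1 with ranks over the whole list, 1 with log2 scores, 1 with a window of 1000 bp and 3 to 10 with a library left out. With 1000 bp the called gene was ARID1B, the 1 member called in any setting, with a better rank in the knockout. Its difference in the main setting was −0.10. The best parental summits, 1495 and 1422 bp from the nearest start site, lie outside the narrower window. Within it the best summits ranked at 52.4% and 59.0% in parental and at 5.26% and 1.64% in knockout cells. Pol II gave 0 genes in each setting, the replicate block included. Where 1 library was left as a line, it was assumed to vary like the other group, and the cause of these changes was not tested. The depth is unknown, and with 2 libraries a group a p that misses the threshold does not show that ranks were alike.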
